A study of Mus musculus with 6 samples.

Results

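The extracellular matrix genes and integrins described here were found by their symbols in the table of genes that the study deposited. The rule took collagens, laminins, fibrillins, fibulins, elastin, fibronectin, thrombospondins, emilins, nidogens, perlecan, a set of named proteoglycans and the tenascins Tnc and Tnxb. It also took Sparc-type and matrilin genes, lysyl oxidases, integrin subunits with a numbered symbol, glypicans and syndecans, and left out Smoc2 and Gpc3. Integrin subunits with a letter in place of the number, such as Itgav, were not searched for. The rule found 94 of the 10580 genes of the table. Of these, 3 carry the name of another family but are proteins of another kind (Itgb1bp1, Itgb3bp and Loxhd1), which leaves 91 genes of the matrix and its receptors. In GENCODE vM21, an annotation of the mouse genome build GRCm38, 132 protein-coding genes have symbols of this form. The other 38, among them Sparc, Dcn, Itgb1, Postn and Thbs1, are not analysed here.

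RNA was sequenced from fetal Leydig cells (FLCs) at embryonic day 18.5 and adult Leydig cells (ALCs) at postnatal day 100, with 3 libraries per stage. All animals were XY and heterozygous for the Nr5a1-GFP transgene (Nr5a1 Tg), embryos being bred from CD-1 females, and the cells with the strongest GFP were sorted, so a cell entered by the activity of the Nr5a1 promoter, which Sertoli cells also use at a lower level. FLC preparations were pooled across sorting experiments, as the methods state. The level of a gene is given as the authors' mean of normalized counts over all 6 libraries (counts divided by a size factor for each library). Values per library were not used, so no SD or n stands beside a level, the depth per library is unknown, and a difference between levels could not be set against the spread between libraries. A level cannot be assigned to FLCs or ALCs, since it joins both stages, and the table lists genes that the authors' own comparison of the stages had selected. A ratio between the levels of different genes therefore need not be the ratio at either stage.

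The extracellular matrix is the meshwork of secreted proteins to which cells attach. In interstitial tissue, fibrillar collagens form its fibres, while laminins, type IV collagen, nidogens and perlecan form basement membranes, thin sheets such as the one that separates the seminiferous tubules of the testis from the interstitium where Leydig cells lie. Cells bind it through integrins, which are pairs of an alpha and a beta subunit, and through cell surface proteoglycans.

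All collagens share a stretch in which glycine, encoded by the codons GGN, stands at 1 of 3 places, which lets the chains wind into a triple helix. In fibrillar collagens much of this stretch is cut into exons of 54 bases. An exon of this length with GGN at 6 regular places is shown for the 3 chains of collagens I and III and, for contrast, for a basement membrane collagen, with the sequence of the coding strand in lower case and all GGN codons in capitals, from the GENCODE vM21 transcripts on GRCm38.

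Col3a1, chr1:45325360-45325413, plus strand: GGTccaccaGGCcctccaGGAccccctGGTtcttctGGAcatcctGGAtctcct
Col1a2, chr6:4515481-4515534, plus strand: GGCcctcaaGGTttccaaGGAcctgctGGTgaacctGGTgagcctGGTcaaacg
Col1a1, chr11:94939904-94939957, plus strand: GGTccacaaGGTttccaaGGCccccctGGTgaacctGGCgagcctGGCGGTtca
Col4a1, chr8:11245211-11245264, minus strand: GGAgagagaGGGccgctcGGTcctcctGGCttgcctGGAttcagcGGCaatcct

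Each of these exons opens with a GGN codon, and that of Col1a1 holds 7 of them, 1 outside the regular places. Col3a1 had 24 internal coding exons of 54 bases that start in frame, Col1a2 24 and Col1a1 21, whereas Col4a1 had 2.

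The levels of markers of the labelled cell type were looked at first. Cyp17a1, Insl3, Cyp11a1, Hsd3b1, Nr5a1 and Star, genes of Leydig cells, were all listed, at means of 87502 (Star) to 283675 (Cyp17a1) normalized counts, against a median of 679 over all listed genes. The highest matrix gene, Col3a1, had 22403. Nr5a1 is no independent marker here, since the cells were sorted by the activity of its promoter. Of the markers of other cell types, 4 of 5 for interstitial progenitors were listed, at 216 (Tcf21) to 2165 (Pdgfra), 2 of 5 for endothelial cells, at 102 (Esam) and 1326 (Cdh5), 3 of 5 for Sertoli cells, at 41.0 (Wt1) to 137 (Amh), and 4 of 5 for germ cells, at 184 (Ddx4) to 3191 (Prm2). For macrophages 5 of 6 symbols were listed, at 45.8 (Cd163) to 982 (Csf1r), the missing one being Adgre1, the current name of the listed Emr1. None of the 5 peritubular myoid markers (Acta2, Myh11, Cnn1, Tagln and Des) was listed, so their level is not analysed here. A marker is listed only where the authors' comparison of the stages selected it. For every cell type, a marker that is not listed may still be expressed, and the number listed does not measure purity. Matrix genes are also used by other cells, among them progenitors, endothelial cells and macrophages. The part of any other cell type in the levels below, Sertoli and peritubular myoid cells included, was not tested. In bulk RNA, fewer cells of a type and less RNA per cell cannot be told apart.

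As a group, the 94 genes lay near the middle of the table. Their median level was 544 normalized counts, and 43 of 94 (45.7%) lay above the median of all listed genes, where 50.0% do by definition. A mean of at least 1000 was found for 38 of them (40.4%), against 41.3% of all listed genes, and a mean under 100 for 19 (20.2%), against 23.0%. Together they held 0.979% of the summed mean of the table. The sum was uneven, since the 10 highest genes (Col3a1, Col6a1, Smoc1, Itga9, Col1a2, Lamb1, Lamc1, Gpc4, Hspg2 and Itgb5) held 57.6% of it. These genes are long, with a median exonic length of 6668.5 bases against 4263 for all listed genes, and 27.5 against 8 coding exons at the median. Divided by exonic length (the union of all annotated exons), the median level was 90.7 normalized counts per kilobase, against 147 over the table. Means depend on the length of a gene, so below a mean describes the gene it belongs to, and genes are compared per kilobase of exonic length unless another length is named.

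**Figure D1:**
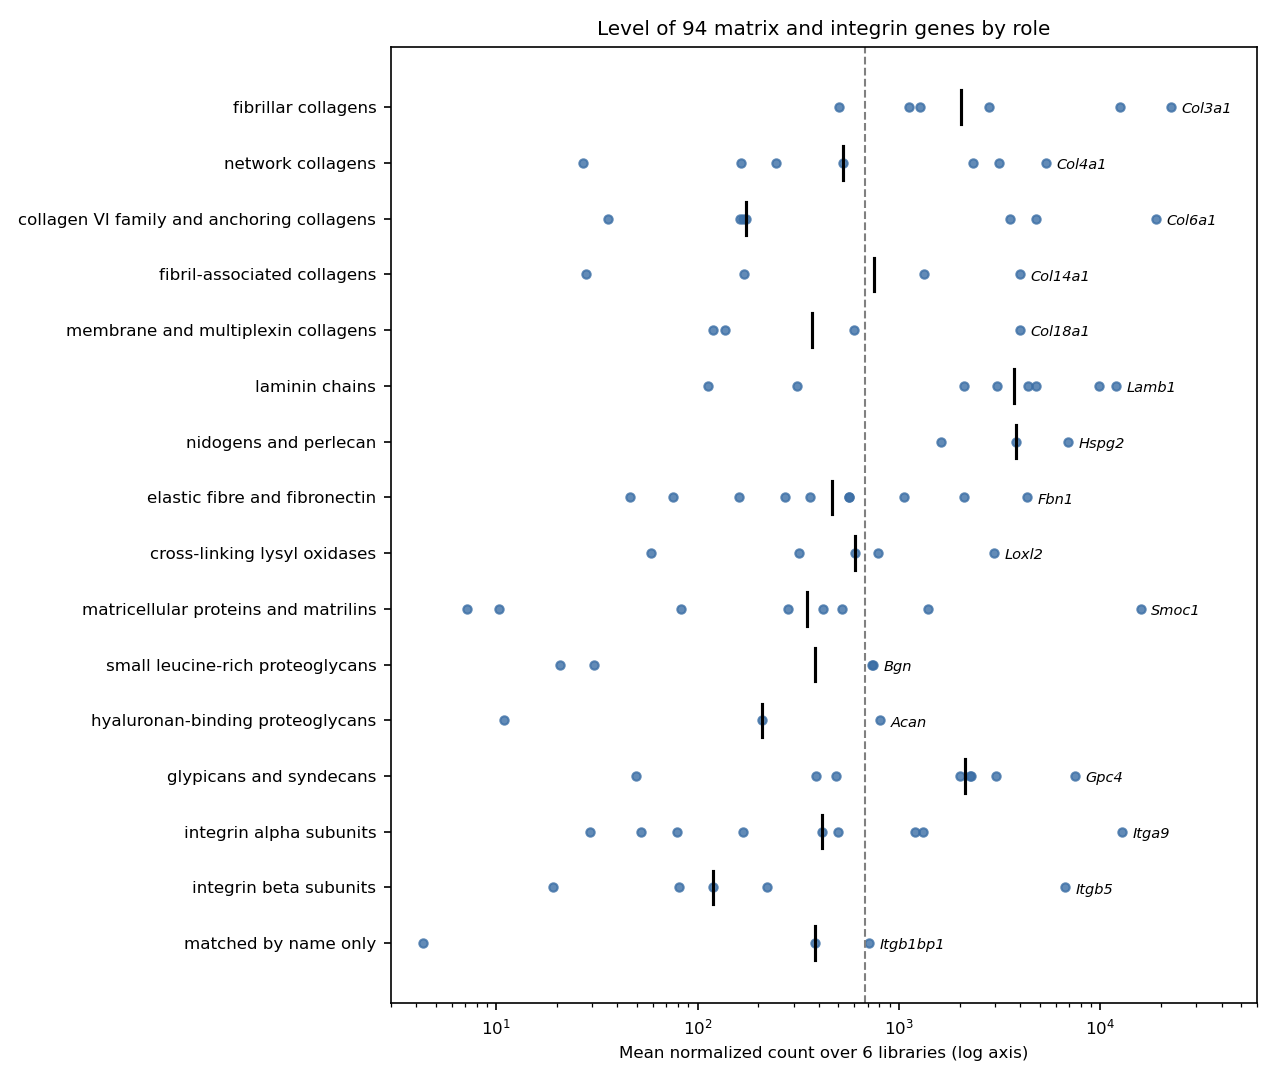
Each point is 1 of the 94 genes, placed by its mean normalized count over 6 libraries on a log axis and grouped by role, with a black bar at the median of the role and the dashed line at 679, the median of all listed genes. The medians of laminin chains (3715), nidogens and perlecan (3831), glypicans and syndecans (2128) and fibrillar collagens (2035) lie to the right of the line, as does that of the fibril-associated collagens (749), and in most roles the genes spread widely around the median. Means are not divided by length. Per kilobase the median of the fibril-associated collagens was 84.8, below the 147 of all listed genes.

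Collagens made up 28 of the genes and held 41.6% of their summed level. Among the fibrillar collagens, which form the banded fibres of connective tissue, Col3a1 had the highest mean of all 94 genes. It encodes the chain of type III collagen, lies on chromosome 1 from 45311538 to 45349706 of GRCm38, and had a mean of 22403 normalized counts, which put it at rank 91 of the table. Per kilobase of exonic length its level was 2282. Col1a2, on chromosome 6 from 4504814 to 4541544, had a mean of 12523 and 1008 per kilobase. Col1a1, on chromosome 11 from 94936224 to 94953042, had a mean of 1274 and 194 per kilobase. These encode the alpha 2 and alpha 1 chains of type I collagen, which usually holds more alpha 1 than alpha 2 chains. In these libraries the level of Col1a2 was 5.19 times that of Col1a1 per kilobase of exonic length, and 10.9 times per kilobase of the longest coding transcript. The chains of type V collagen, which joins type I and III fibres, had 292 (Col5a2) and 132 (Col5a1) per kilobase, and Col27a1, a fibrillar collagen of cartilage, had 38.9. By every length, Col3a1 and Col1a2 had the highest levels of the listed fibrillar chains.

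Type IV collagen, the network of basement membranes, is built from chains encoded in 3 pairs of genes. Col4a1 and Col4a2, the chains found in nearly all basement membranes, had the highest levels, with means of 5359 and 3126 and 718 and 472 per kilobase. The level of Col4a1 was 1.52 times that of Col4a2 per kilobase of exonic length. Col4a5 followed with 347 per kilobase. Col4a3, Col4a4 and Col4a6, which are known from the kidney and other special basement membranes, had 24.5, 49.4 and 20.6 per kilobase, all below the other chains. The partners of a pair are neighbours on the chromosome, head to head. Col4a1 and Col4a2 overlap by 22 bases at their starts on chromosome 8 in the annotation, 71 bases separate Col4a4 from Col4a3 on chromosome 1, and 1308 bases separate Col4a6 from Col4a5 on chromosome X. Despite this common layout the ratio within a pair differed, at 1.52 for Col4a1 over Col4a2, 2.02 for Col4a4 over Col4a3 and 16.9 for Col4a5 over Col4a6 per kilobase. Col8a2, a network collagen of the cornea, had a mean of 27.1.

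Type VI collagen forms beaded filaments from an alpha 1 chain, an alpha 2 chain and a longer chain that can be alpha 3 or one of its relatives. Col6a1, on chromosome 10 from 76708792 to 76726168, had a mean of 18806 (rank 121 of the table) and 4294 per kilobase. Col6a2, its neighbour on the same strand, had a mean of 4777 and 574 per kilobase. Col6a3 had a mean of 168 and 14.1 per kilobase. Of the listed longer chains, Col6a5 had the highest level, with a mean of 3564 and 379 per kilobase, and Col6a6 lay at 18.9. Col6a4 was not listed and is not analysed here. The level of Col6a1 was thus 305 times that of Col6a3 and 7.48 times that of Col6a2 by exonic length, the latter ratio being 3.79 by the longest coding transcript. Col7a1, which encodes the anchoring fibrils of skin, had a mean of 163.

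Of the fibril-associated collagens, which coat fibrillar collagen, Col14a1 had a mean of 3990.3 and Col22a1 1328, or 569 and 144 per kilobase, while Col16a1 (25.3) and Col9a2 (8.98) lay lower. Col18a1, a basement membrane collagen and the precursor of endostatin, had a mean of 4013 and 572 per kilobase. Of the collagens that span the cell membrane, Col23a1 had 105 per kilobase, Col13a1 25.8 and Col25a1 10.6. The order of Col13a1 and Col25a1 turned by the longest coding transcript, at 37.6 and 52.3.

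**Figure D2:**
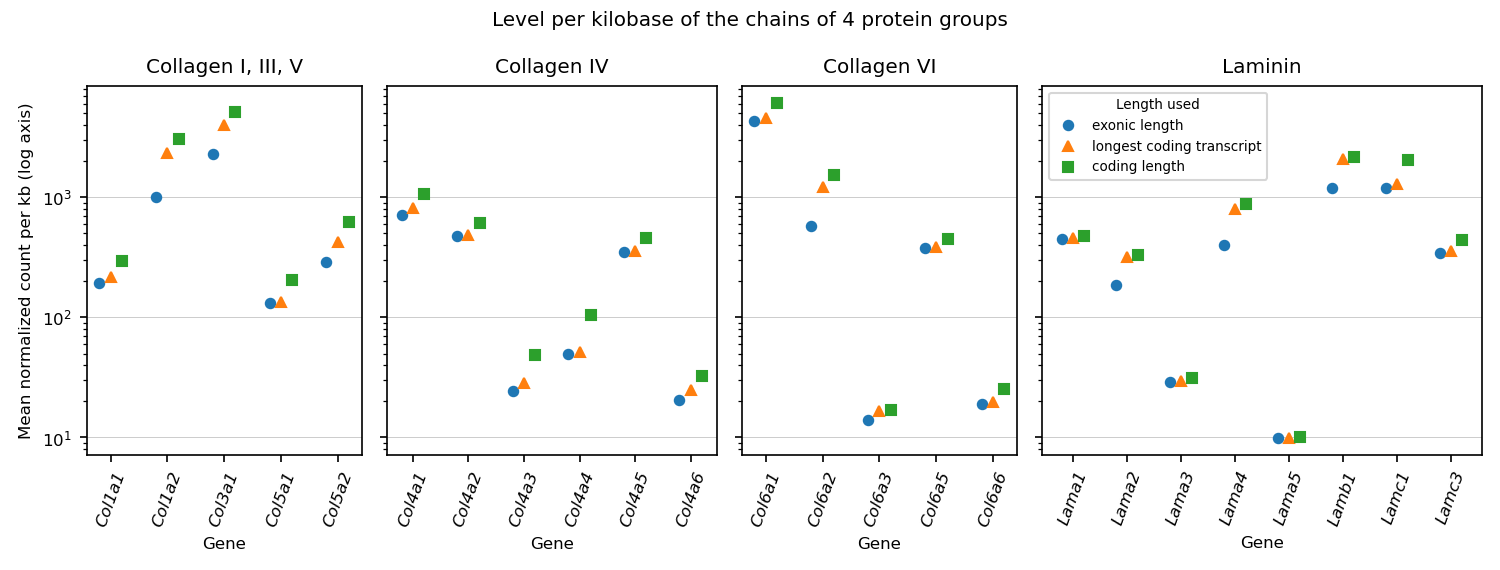
Points give the mean normalized count per kilobase (log axis) of the chains of collagens I, III and V, collagen IV, collagen VI and the laminins, with the symbol and colour showing which length was used. By every length Col1a1 lies below Col1a2, Col4a3, Col4a4 and Col4a6 lie below the other type IV chains, Col6a3 lies below Col6a1, and Lamb1 and Lamc1 lie above the alpha chains.

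Laminins, the cross-shaped proteins on which a basement membrane is laid down, hold 1 alpha, 1 beta and 1 gamma chain. Lamb1, on chromosome 12 from 31265234 to 31329644, and Lamc1, which occur in most laminins, had means of 11938 and 9823 and nearly the same level per kilobase, 1204 and 1187, although Lamb1 was 1.60 times Lamc1 per kilobase of the longest coding transcript. Of the alpha chains, which give a laminin its binding properties, Lama1 (451 per kilobase), Lama4 (397) and Lama2 (187) had the higher levels, with Lama4 above Lama1 by the longest coding transcript (792 and 458). Lama1 is typical of embryonic basement membranes, Lama2 of muscle and nerve, and Lama4 of blood vessels. Lama3 and Lama5, chains of epithelia, had 29.0 and 9.95. Lamc3, a second gamma chain, had 345. Summed over the listed chains, the level per kilobase was 1074 for the 5 alpha chains, 1204 for Lamb1 and 1532 for both gamma chains. Lamb2 is not analysed here. Nid1 and Nid2, the nidogens that link laminin to type IV collagen, had means of 3831 and 1609.6, and Hspg2, which encodes the heparan sulfate proteoglycan perlecan, had 6933. Per kilobase Nid1 (552) lay above Hspg2 (485) and Nid2 (311). The means of all 3 were above the median mean of the table, as were those of 6 of the 8 laminin chains.

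Among the proteins of elastic fibres, Fbn1, the main fibrillin of microfibrils, had a mean of 4346 and 358 per kilobase, and Fbln5, a fibulin needed for elastic fibre assembly, had 2106 and 305. Their order depended on the length used, since by the longest coding transcript Fbln5 had 888 and Fbn1 363. Fbn2, the fibrillin best known from development, had 42.6 per kilobase, so the level of Fbn1 was 8.40 times higher. Fibronectin (Fn1), a major adhesive protein of the interstitium, had a mean of 1057 and 90.5 per kilobase, and elastin itself (Eln) 161 and 19.9. Fbln2 and Fbln1 had 88.6 and 62.6 per kilobase, and Emilin1, Emilin3 and Emilin2 ranged from 73.5 to 8.36. Of the lysyl oxidases, which cross-link collagen and elastin, Loxl2 had a mean of 2981 and the highest level, 551 per kilobase. Loxl3 (171), Loxl4 (143) and Loxl1 (96.8) followed, with Loxl4 above Loxl3 by the longest coding transcript (230.04 and 192), and Lox itself had 12.3.

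Among the listed matricellular proteins, which modulate how cells meet the matrix rather than build it, Smoc1 stood far above the others. Sparc, Postn, Thbs1 and Thbs3 were not listed, so their levels are not analysed here. Smoc1, a secreted calcium-binding protein related to Sparc, lies on chromosome 12 from 81026808 to 81186414 and had a mean of 15892. With 4546 per kilobase it took rank 1 of the 94 genes, although by the longest coding transcript Col6a1 (4587) lay above it. Sparcl1, of the same wider family, had a mean of 1397 and 476 per kilobase. The matrilin Matn2 had 67.0 per kilobase, the tenascins Tnxb and Tnc 42.6 and 36.2, and the thrombospondins Thbs2 and Thbs4 11.8 and 3.14. Matn3 had a mean of 7.19, and with Thbs4, Ncan and Loxhd1 it made up the 4 lowest of the 94 genes, by mean and per kilobase, whose levels rest on few reads per library.

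The listed small leucine-rich proteoglycans and hyaluronan-binding proteoglycans all had means under 1000. Of the small leucine-rich proteoglycans, which bind collagen fibres, Ogn (osteoglycin) had a mean of 735 and Bgn (biglycan) 744, or 286 and 122 per kilobase, with Bgn above Ogn by the longest coding transcript (308 and 286). Lum (lumican) and Prelp had 12.5 and 5.71 per kilobase. Of those that bind hyaluronan, Acan, the large proteoglycan of cartilage, had a mean of 805 and 108 per kilobase, Vcan (versican) 208 and 14.4, and Ncan, known from brain, 10.9 and 1.52.

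The listed glypicans and syndecans, proteoglycans of the cell surface, had a median of 539 per kilobase. It was 67.3 for the 4 listed small leucine-rich proteoglycans and 14.4 for the 3 that bind hyaluronan. These medians leave out Dcn, Fmod and Gpc5, which were not listed, and Gpc3, which the rule left out. Gpc4, a glypican held to the membrane by a lipid anchor, had a mean of 7465 and, at 2816 per kilobase, rank 3 of the 94 genes. Col3a1 lay above it by the longest coding transcript (4027 against 2816) and by coding length (5101 against 4468). Gpc1 had 442 per kilobase, Gpc2 90.9 and Gpc6 7.66. Of the syndecans, which span the membrane, Sdc1 (793), Sdc4 (789.6) and Sdc2 (636) lay close together per kilobase, their order depending on the length used, and Sdc3, best known from nerve cells, had 81.5. The median percentile of the 8 glypicans and syndecans among all listed genes was 79.5 per kilobase, against 40.4 for the 94 genes.

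The integrins of the group were 9 alpha and 5 beta subunits, and 1 of each dominated. Itga9, on chromosome 9 from 118606690 to 118901003, had a mean of 12786, and Itgb5, on chromosome 16, one of 6709. Their levels per kilobase were 1663 and 1888, an order that turned by coding length, where Itga9 was 1.501 times Itgb5. Itga9 pairs with Itgb1 and binds tenascin and other ligands, and Itgb5 pairs with Itgav, a receptor of vitronectin, so the 2 do not form a pair with each other, and their partners Itgb1 and Itgav are not analysed here. Among the other alpha subunits, the laminin receptors Itga3 and Itga6 had 232 and 133 per kilobase, the fibronectin receptors Itga5 and Itga4 had 101 and 29.6, and the collagen receptors Itga11 and Itga10 had 32.6 and 10.1. By the longest coding transcript Itga6 (288) lay above Itga3 (282) and Itga4 (42.4) above Itga11 (33.7). Itga8 had 3.99 per kilobase. Among the other beta subunits Itgb2 had 38.9 per kilobase and Itgb8 20.04, with Itgb8 above Itgb2 by coding length (96.3 and 51.4). The means of Itgb2 and Itgb7, subunits of leukocyte integrins, were 119 and 19.2, beside 139 for the leukocyte marker Ptprc, and those of Itga2b and Itgb3, which form the receptor of platelets for fibrinogen, were 79.1 and 80.4. The part of blood cells in these 4 levels was not tested.

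Genes of the group lay on 20 chromosomes, and 7 pairs of them were neighbours less than 100000 bases apart, 6 of which were pairs of collagens. Apart from the type IV pairs these were Col3a1 with Col5a2, Col6a2 with Col6a1, Col6a6 with Col6a5, and Col1a1 with Itga3. Levels per kilobase differed 7.83-fold between Col3a1 and Col5a2 and 7.48-fold between Col6a1 and Col6a2, while Itga3 and Col1a1 differed 1.19-fold. Thus neighbours could lie far apart in level.

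The repeat of the triple helix was then measured in the coding sequence of all listed genes, as the longest run of codons with GGN at 1 of 3 places. All 28 collagens had a run of at least 60 codons, a chosen cutoff, from 69 codons in Col26a1 to 1032 in Col3a1. Since all collagens share this repeat, the count describes the annotated sequences and is no result on their levels. In the 6 fibrillar collagens the run was 651 codons (Col27a1) or longer, and Col1a1 and Col1a2 had 1014 and 1017. Among the 66 other genes of the group none reached 60, the longest being 51 codons in Eln and Emilin1. Of the internal coding exons of the fibrillar collagens, 85.1% had a length that is a multiple of 9 bases, the length of 3 codons. The share was 64.3% over all 28 collagens, 19.0% in the 66 other genes and 13.4% in listed genes outside the group. Genes with runs of near length could differ in level, as Col3a1 (mean of 22403) and Col5a1 (1122) have runs of 1032 and 1014 codons. Whether the length of the run and the level go together over the collagens was not tested.

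**Figure D3:**
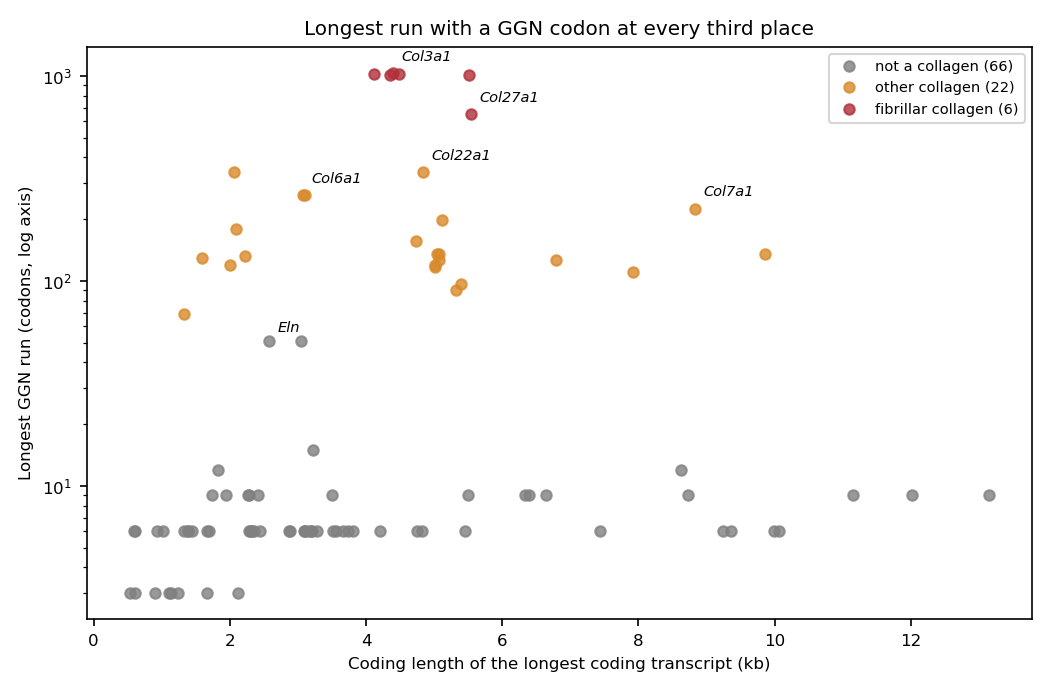
Each point is 1 of the 94 genes, with the coding length of its longest coding transcript in kilobases on the x axis and its longest run of codons with GGN at 1 of 3 places on the y axis (log axis). Fibrillar collagens lie at 651 to 1032 codons, the other 22 collagens at 69 to 339, and the 66 remaining genes at 51 or below.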

How the data were processed

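RNA of fetal and adult Leydig cells (3 libraries each) was sequenced. The paper's methods name a total RNA library kit, whereas its results speak of poly(A)+ RNA. The authors demultiplexed the reads with Casava (v1.8.2 in the submitters' processing notes), aligned them using GemTools and obtained gene counts on a GENCODE annotation of GRCm38, then ran DESeq2 without genes under 10 reads. The deposited signal, which the authors made by dividing each library's counts by its size factor and averaging the 6 libraries, was the only measure used. It carries no depth per library and no error. The deposited table also holds the authors' own comparison (log2 fold change, standard error, test statistic, p-value and adjusted p-value). No value was taken from those columns and no difference between FLCs and ALCs is given; the adjusted p-value was read once, to check that the table lists only genes below 0.05. Being listed therefore depends on the stages differing, and shares of the table are not shares of all expressed genes. The sample sheet holds no measured value.

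Symbols were matched to GENCODE vM21 (GRCm38), 10205 directly and 299 by an older symbol, with 76 unmatched; all 94 members matched directly. Exonic length is the union of annotated exons, and the coding sequence is that of the transcript with the longest one. The release the authors counted on may differ, so these lengths need not be those of the exons they counted. The search for codon runs was tested on simulated sequences. Members, roles, markers and the rule for named genes (all members, by role) were chosen with earlier results of these data known. Python 3.11.15 and pandas 2.3.3 were used. No test was run across genes, which are not replicates.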

Additional observations from a re-analysis of the deposited data

How the results depend on the processing

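Of 66 recomputed values, 47 stayed within 1.5 times of the reported one, 15 moved further and 4 turned in direction. The share of the 94 genes in the summed level was 0.560% per kilobase of exonic length, in place of 0.979%, and 1.00% without eGFP and Jak3. Their median level was 1057 among genes with a mean of at least 100. The order of near levels depended on the length used, as given beside those genes above, and in the paired ratios: Lama4 over Lama1 was 0.879 by exonic length, 1.73 by the longest coding transcript and 1.86 by coding length, Sdc1 over Sdc4 was 1.00 and 0.956 by coding length, and Itga9 over Itgb5 was 0.880 and 1.501 by coding length. Exonic length counts every annotated exon, and which transcripts were present is not known. No library could be left out, since no value per library was used. No paired analysis was possible because the result comes from no test and the column pools both stages.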

Other observations

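The run of codons with GGN at 1 of 3 places also picked out genes that the rule on symbols does not name. Among 10280 listed genes outside the group with a coding sequence, 12 had a run of at least 60 codons. They were Scara5 (mean of 1613 normalized counts, run of 75 codons), C1qtnf3 (1228, 69), C1qtnf7 (1076, 102), C1qb (480.5, 87), Colec12 (382, 147), C1qtnf5 (276, 69), Scara3 (53.0, 147), C1qtnf2 (47.6, 102), Gldn (43.5, 84), Msr1 (27.8, 75), Marco (3.70, 243) and Adipoq (3.33, 66). These encode secreted proteins of the complement C1q and adiponectin type, collectins, scavenger receptors and gliomedin, all known to hold a collagen-like stretch. Scavenger receptors and C1q are also made by macrophages, whose markers are listed at means of 45.8 to 982, and the part of those cells in these levels was not tested.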
